A study of Homo sapiens with 24 samples.

Results

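The comparison described here set 3 arrays of 769-P cells given dasatinib for 24 h against 3 arrays of the same line given it for 12 h, and it asked which transcripts moved in the last 12 hours of drug. The 6 arrays were taken by their labels from the 24 of the series, which also holds DMSO and 6 h arrays of 769-P and the same 4 groups of a second line, Caki-1, with 3 arrays a group. Both are established human renal cell carcinoma lines, and dasatinib was used at 1 µM throughout. The DMSO arrays carry no time, so no vehicle culture is matched to 12 h or 24 h, and hours of drug cannot be told apart from hours in culture. The 3 arrays of a group are labelled as biological replicates without saying how the cultures were separated, so the p-values measure the spread between these arrays. In bulk RNA, fewer cells of a kind and less RNA per cell cannot be told apart.

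Dasatinib blocks the SRC family kinases, ABL and several receptor kinases, which pass signals from adhesion sites and growth factor receptors to the RAS-ERK cascade. ERK output turns on immediate-early genes such as MYC. It also turns on cyclin D1, and phosphatases and Sprouty proteins that dampen the same cascade. In a dividing cell, replication genes are switched on as cells leave G1 and mitotic genes follow in G2, with E2F factors acting at the former and the DREAM and B-MYB complexes at the latter, so both sets run low in cells that stop cycling.

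Of 18132 genes read from 1 probe set each, 12350 lay above the filter on dim signals and were tested with limma, and 3428 of them (27.8%) had an adjusted p under 0.05, which is what "rose", "fell" and "changed" mean below. The rises numbered 2098 (17.0%) and the falls 1330 (10.8%), and these percentages are the background for the counts of each gene group. Large changes were mostly falls, since 262 genes (2.12%) fell at least 2-fold and 97 (0.785%) rose as much. The median change of all genes tested was 0.04 on the log2 scale, which is the scale of every value and change below. Changes are 24 h minus 12 h and carry the SE of the fit, with n = 3 arrays a group.

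Replicate 1 at 24 h stood apart in its RNA. The gap between the 3' and 5' probe sets of ACTB, which widens when RNA is degraded or labelled short, was 4.07 on that array, 3.10 and 3.22 on the other arrays at 24 h, 2.92, 2.67 and 2.88 at 12 h, and between 2.67 and 3.22 on the 23 other arrays of the series. The same gap of GAPDH was 0.52 on that array and between 0.20 and 0.37 on the others. The 12 h arrays lay below all 3 arrays at 24 h in the ACTB gap, so the gap moves with the groups compared. Without replicate 1 at 24 h, 1771 genes rose, 1644 of them among the 2098, and 1331 fell, 1174 of them among the 1330. With the ACTB gap as a covariate, 1034 rose, 954 of them among the 2098, and 1007 fell, 922 of them among the 1330. The part of RNA quality in the remaining difference was not tested. Gene groups are therefore given below with their counts without that array wherever those differ by more than 1.5 times. Of the 80 counts of rises and falls in the gene lists, 42 moved by more than 1.5 times with the covariate. Those counts are not given list by list.

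**Figure D1:**
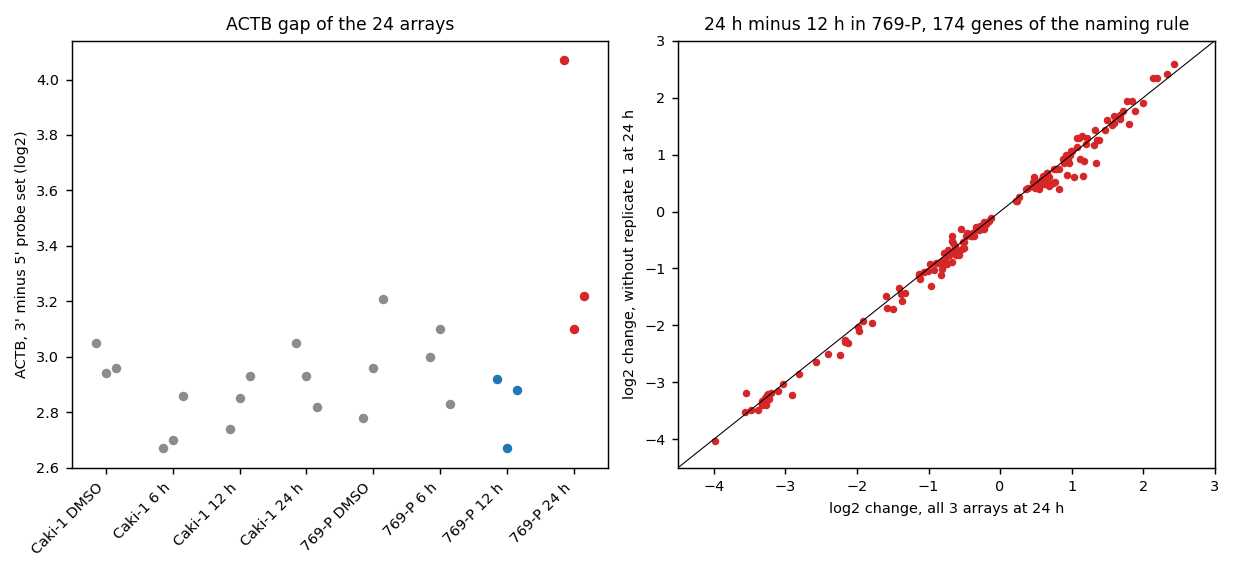
Left, the ACTB gap (3' minus 5' probe set, log2) on each of the 24 arrays, 1 point an array, by group; replicate 1 of 769-P at 24 h lies at 4.07 and no other array above 3.22. Right, the log2 change from 12 h to 24 h in 769-P with all 3 arrays at 24 h (x) and without replicate 1 (y) for each gene of the naming rule that was tested, with the line of equality; the points keep close to the line.

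The mitotic programme held the deepest falls of the last 12 hours. All 39 measured genes of the mitosis and kinetochore list fell, with changes from -3.98 to -1.18 and a median of -2.95, and no array at 24 h overlapped an array at 12 h for any of them, a separation that 15.3% of all genes tested showed in that direction. SPC25, a subunit of the NDC80 complex that ties kinetochores to microtubules, read 9.49, 9.18 and 9.07 at 12 h and 5.35, 4.97 and 5.47 at 24 h, a change of -3.98 ± 0.13 (adjusted p = 1.84e-12). Its mean at 24 h, 5.26, lay under the filter level of 5.36, so the size of its fall and its rank are not resolved. Its partner NDC80 read 10.39, 10.35 and 10.03 at 12 h and 6.63, 6.60 and 6.85 at 24 h, a change of -3.57 ± 0.10 (adjusted p = 6.56e-13). CDK1, the cyclin-dependent kinase of mitotic entry, read 11.66, 11.67 and 11.46 at 12 h and 8.40, 8.03 and 8.35 at 24 h, a change of -3.33 ± 0.10 (adjusted p = 8.52e-13). In each of these genes the arrays of a group lay close together and the groups lay far apart.

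Most of the 15 largest falls among all genes came from the same machinery. Spindle proteins among them were FAM83D (-3.38), DLGAP5 (-3.33) and ASPM (-3.32). The kinesins KIF2C, which shortens microtubules, and KIF20A, which acts in cytokinesis, changed by -3.31 and -3.26. The checkpoint kinase BUB1 (-3.27), the mitotic kinase PBK (-3.29), the condensin subunit NCAPG (-3.27), the mitotic entry factor CDCA3 (-3.23) and the DNA helicase PIF1 (-3.48) followed. Under some alternative fit CDCA3 shrank to -1.67 and PIF1 to -1.73, and both kept their calls in all of these fits. MKI67, the antigen used to score dividing cells, read 9.90, 9.96 and 9.87 at 12 h and 6.59, 6.58 and 6.84 at 24 h, a change of -3.24 ± 0.08 (adjusted p = 1.76e-13). TOP2A, the topoisomerase that untangles sister chromosomes, read 11.86, 11.86 and 11.55 at 12 h and 7.47, 8.66 and 8.50 at 24 h, a change of -3.55 ± 0.21 (adjusted p = 2.98e-09). Its lowest array was replicate 1 at 24 h, and without that array the change was -3.18 (adjusted p = 1.8e-12). Of 20 tested genes with a CENP symbol, a set counted after values were seen, 17 fell and none rose.

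The list's medians were close to 0 until 12 h. Against DMSO, where 47.5% of the genes tested had changed at 12 h (24.9% higher, 22.6% lower) and 55.7% at 24 h (31.1% higher, 24.6% lower), the median of the mitosis list was 0.08 at 6 h, -0.11 at 12 h and -3.01 at 24 h. Several members were higher than DMSO at 12 h, where KIF20A stood at 0.68 (adjusted p = 2.5e-05) and ASPM at 0.37 (adjusted p = 0.00049), while SPC25 stood at -0.64 (adjusted p = 0.00072). The value of CDK1 against DMSO was -0.24 at 12 h and -3.58 at 24 h. These comparisons use the same DMSO and 12 h arrays and are set side by side as values.

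Promoters of the mitosis list shared a short element. Windows of 300 bases around the RefSeq start site (250 before it and 50 from it on, GRCh38.p14) were at hand for 33 of the 39 genes. The cell cycle homology region TTTGAA, on which DREAM and B-MYB complexes are known to act, was found on either strand in 25 of these 33 windows (75.8%), against 15.4% of 27305 promoters in all and 9.8% of the 10084 promoters of genes tested. The CCAAT box, the site of NF-Y, was also in 25 of 33 (75.8%), against 35.7% of all promoters. The 25 genes with TTTGAA changed by a median of -2.99 and the 8 without it by -2.88. The 4 windows below are those of the list members with TTTGAA that fell most, and capitals mark TTTGAA and CCAAT on either strand.
SPC25, chr2:168890381-168890680, minus strand: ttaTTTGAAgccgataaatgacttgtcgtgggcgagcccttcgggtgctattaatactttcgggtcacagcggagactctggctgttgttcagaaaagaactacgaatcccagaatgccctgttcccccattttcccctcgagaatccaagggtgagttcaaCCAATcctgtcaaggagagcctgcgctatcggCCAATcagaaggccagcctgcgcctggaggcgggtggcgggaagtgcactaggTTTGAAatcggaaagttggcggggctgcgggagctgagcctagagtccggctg
NDC80, chr18:2571307-2571606, plus strand: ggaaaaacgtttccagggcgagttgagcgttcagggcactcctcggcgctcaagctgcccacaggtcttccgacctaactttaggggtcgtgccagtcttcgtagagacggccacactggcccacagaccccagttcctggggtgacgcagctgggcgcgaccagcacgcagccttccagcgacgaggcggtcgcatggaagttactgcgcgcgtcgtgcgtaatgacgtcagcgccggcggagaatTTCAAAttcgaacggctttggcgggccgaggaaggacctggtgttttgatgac
TOP2A, chr17:40417847-40418146, minus strand: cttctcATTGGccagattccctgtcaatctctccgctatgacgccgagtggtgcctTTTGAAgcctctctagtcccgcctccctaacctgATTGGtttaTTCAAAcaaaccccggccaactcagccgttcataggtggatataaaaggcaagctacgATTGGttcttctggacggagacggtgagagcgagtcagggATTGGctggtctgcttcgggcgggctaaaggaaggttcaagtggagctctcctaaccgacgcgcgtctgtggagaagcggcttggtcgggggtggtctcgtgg
CDK1, chr10:60778081-60778380, plus strand: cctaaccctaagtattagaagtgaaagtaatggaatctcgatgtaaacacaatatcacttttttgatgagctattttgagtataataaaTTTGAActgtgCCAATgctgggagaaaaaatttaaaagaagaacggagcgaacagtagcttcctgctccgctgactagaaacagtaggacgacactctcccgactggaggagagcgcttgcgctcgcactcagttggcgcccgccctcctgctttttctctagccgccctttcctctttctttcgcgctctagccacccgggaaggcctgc
Counted from the start site as base 1, the element began 3 bases before the start in NDC80 and in one of the matches of SPC25, and 161 bases before it in CDK1. A match is a description of these letters and does not show that a factor was bound.

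**Figure D2:**
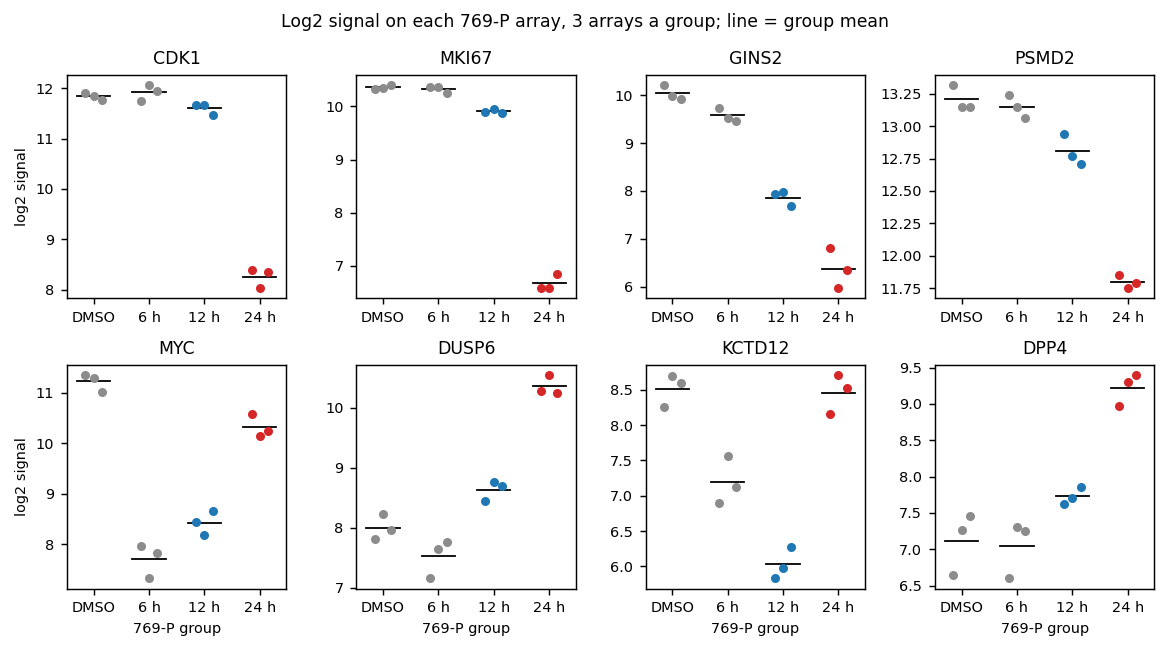
Log2 signal on each 769-P array (y) in the DMSO, 6 h, 12 h and 24 h groups (x) for 8 genes, 3 points a group with 12 h in blue and 24 h in red, and a line at the group mean. CDK1 and MKI67 drop between 12 h and 24 h, GINS2 drops in both of the last steps, MYC and KCTD12 return upwards from their low arrays, and DUSP6 and DPP4 end above DMSO; each panel has its own scale.

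Replication genes also fell, by less and from an earlier start. In the list for DNA replication and S phase 33 of 38 genes fell, none rose (1 without replicate 1 at 12 h), and the median change was -0.81. CCNA2, the cyclin of S phase and G2, read 10.95, 10.99 and 10.77 at 12 h and 8.20, 8.03 and 8.06 at 24 h, a change of -2.81 ± 0.08 (adjusted p = 6.5e-13). The subunits of the GINS complex, which is part of the replicative helicase, followed it: GINS4 changed by -2.16 ± 0.11, GINS1 by -1.58 ± 0.11 and GINS2 by -1.50 ± 0.16. GINS2 read 7.94, 7.98 and 7.68 at 12 h and 6.80, 5.97 and 6.34 at 24 h, with no overlap between the groups. The 5 members that did not pass the test, named after their values were seen, were MCM5 (-0.31), E2F1 (-0.08), CCNE1 (0.08), CCNE2 (0.16) and RFC5 (0.21), so both E cyclins were among them.

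Against DMSO this list stood at a median of -0.31 at 6 h, -1.10 at 12 h and -2.07 at 24 h. The 6 hours before 12 h moved it by a median of -0.82 and the 12 hours after by -0.81. GINS2 was already at -2.18 against DMSO at 12 h (adjusted p = 3.01e-08) and CCNA2 at -0.31 (adjusted p = 0.0045). The replication promoters carried another element: an E2F site, searched on either strand as TTTCCCGC, TTTCGCGC, TTTGCCGC or TTTGGCGC, was in 19 of 34 windows (55.9%), against 3.3% of all promoters, 5.4% of those of genes tested and 3 of the 33 mitosis windows. None of the 34 held TTTGAA. The 19 genes with the site changed by a median of -0.83 and the 15 without it by -0.78. The windows of the 2 members with the site that fell most are given with the site in capitals.
GINS1, chr20:25407423-25407722, plus strand: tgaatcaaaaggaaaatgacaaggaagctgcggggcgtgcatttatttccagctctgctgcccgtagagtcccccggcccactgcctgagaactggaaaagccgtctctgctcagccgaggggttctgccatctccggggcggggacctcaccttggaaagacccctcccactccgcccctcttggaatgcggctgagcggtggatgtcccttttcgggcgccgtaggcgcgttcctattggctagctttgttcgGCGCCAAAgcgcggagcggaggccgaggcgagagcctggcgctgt
GINS2, chr16:85688905-85689204, minus strand: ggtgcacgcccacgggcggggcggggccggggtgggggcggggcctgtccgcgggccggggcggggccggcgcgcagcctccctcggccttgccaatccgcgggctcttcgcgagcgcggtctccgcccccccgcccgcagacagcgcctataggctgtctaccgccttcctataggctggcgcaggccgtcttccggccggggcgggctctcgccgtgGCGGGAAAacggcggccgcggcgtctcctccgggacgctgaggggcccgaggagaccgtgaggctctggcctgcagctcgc
The site begins 31 bases before the start of GINS2 and at base 6 from the start of GINS1.

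Genes that repair DNA during replication fell with them. Of the 22 genes for homologous recombination, the Fanconi pathway and checkpoints 17 fell, none rose, and the median was -1.04. RAD51AP1, a cofactor of strand exchange, read 9.83, 9.65 and 9.65 at 12 h and 7.27, 7.02 and 7.12 at 24 h, a change of -2.57 ± 0.10 (adjusted p = 1.24e-11). MND1, known from meiotic recombination, changed by -2.23 ± 0.19 to a mean of 5.28 under the filter level, the helicase BLM by -2.17 ± 0.12 and FANCI, a Fanconi anaemia protein, by -1.98 ± 0.10. In each of the 4 genes all arrays at 24 h lay below all arrays at 12 h, as they did in 15.3% of all genes tested. Of 26 genes for nucleotide synthesis and one-carbon metabolism 13 fell and 1 rose, CTPS1, a CTP synthase named after its value was seen, and the rises numbered 0 when any array other than replicate 2 at 24 h was left out. The falls were led by the enzymes of DNA precursors: thymidine kinase TK1 (-1.97 ± 0.09), the ribonucleotide reductase subunits RRM2 (-1.91 ± 0.08) and RRM1 (-1.41 ± 0.08), and thymidylate synthase TYMS (-1.39 ± 0.07). TYMS read 13.29, 13.16 and 13.07 at 12 h and 11.91, 11.63 and 11.81 at 24 h.

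Proteasome and chaperone transcripts declined together by smaller amounts. Of 27 proteasome subunits 22 fell and none rose, with a median of -0.34, and without replicate 1 at 24 h 21 fell. PSMD2, a subunit of the regulatory particle, read 12.94, 12.77 and 12.71 at 12 h and 11.85, 11.75 and 11.79 at 24 h, a change of -1.01 ± 0.07 (adjusted p = 1.5e-08). The ATPase subunit PSMC3 changed by -0.89 ± 0.08 and the deubiquitinase PSMD14 by -0.63 ± 0.05. PSMD1 changed by -0.67 ± 0.14 with all arrays and by -0.43 without replicate 1 at 24 h, which was its lowest array at 10.39 beside 11.08 and 11.10, and with the ACTB gap as a covariate it was -0.27 and did not pass (adjusted p = 0.17). Against DMSO the subunits stood at a median of 0.05 at 6 h, -0.10 at 12 h and -0.48 at 24 h.

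In the list for heat shock and cytosolic chaperones 14 of 25 genes fell and 1 rose, and the falls numbered 9 without replicate 2 at 24 h and 8 without replicate 3. HSP90AA1, the inducible HSP90, read 12.30, 12.14 and 12.06 at 12 h and 11.30, 11.48 and 11.53 at 24 h, a change of -0.73 ± 0.08 (adjusted p = 5.8e-06). Its constitutive paralogue HSP90AB1 changed by -0.63 ± 0.07 and the small heat shock protein HSPB1 by -0.46 ± 0.10. HSPB8, another small heat shock protein, was the rise of this list (0.64 ± 0.16). With the ACTB gap as a covariate neither HSPB1 (-0.25, adjusted p = 0.125) nor HSPB8 (0.44, adjusted p = 0.16) passed. CRYAB, a small heat shock protein outside the list, read 10.54, 10.59 and 10.76 at 12 h and 12.05, 12.27 and 12.34 at 24 h, a change of 1.59 ± 0.13 (adjusted p = 1.85e-07). Of the 29 genes for the unfolded protein response and chaperones of the endoplasmic reticulum 10 fell and 3 rose, and the falls numbered 5 without replicate 1 and 6 without replicate 2 at 12 h. SEC24D, a coat protein of vesicles leaving the reticulum, changed by -0.85 ± 0.14, CREB3L2 by -0.71 ± 0.10 and ERO1A, an oxidase for disulfide bonds, by -0.67 ± 0.18 (not passing without replicate 3 at 24 h or replicate 1 at 12 h), while the cochaperone DNAJB9 rose by 0.55 ± 0.12. DNAJB9 did not pass on the mean of its probe sets (0.28, adjusted p = 0.0917) or with the ACTB gap as a covariate (0.42, adjusted p = 0.0914), and neither did ERO1A on the mean of its probe sets (-0.28).

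**Figure D3:**
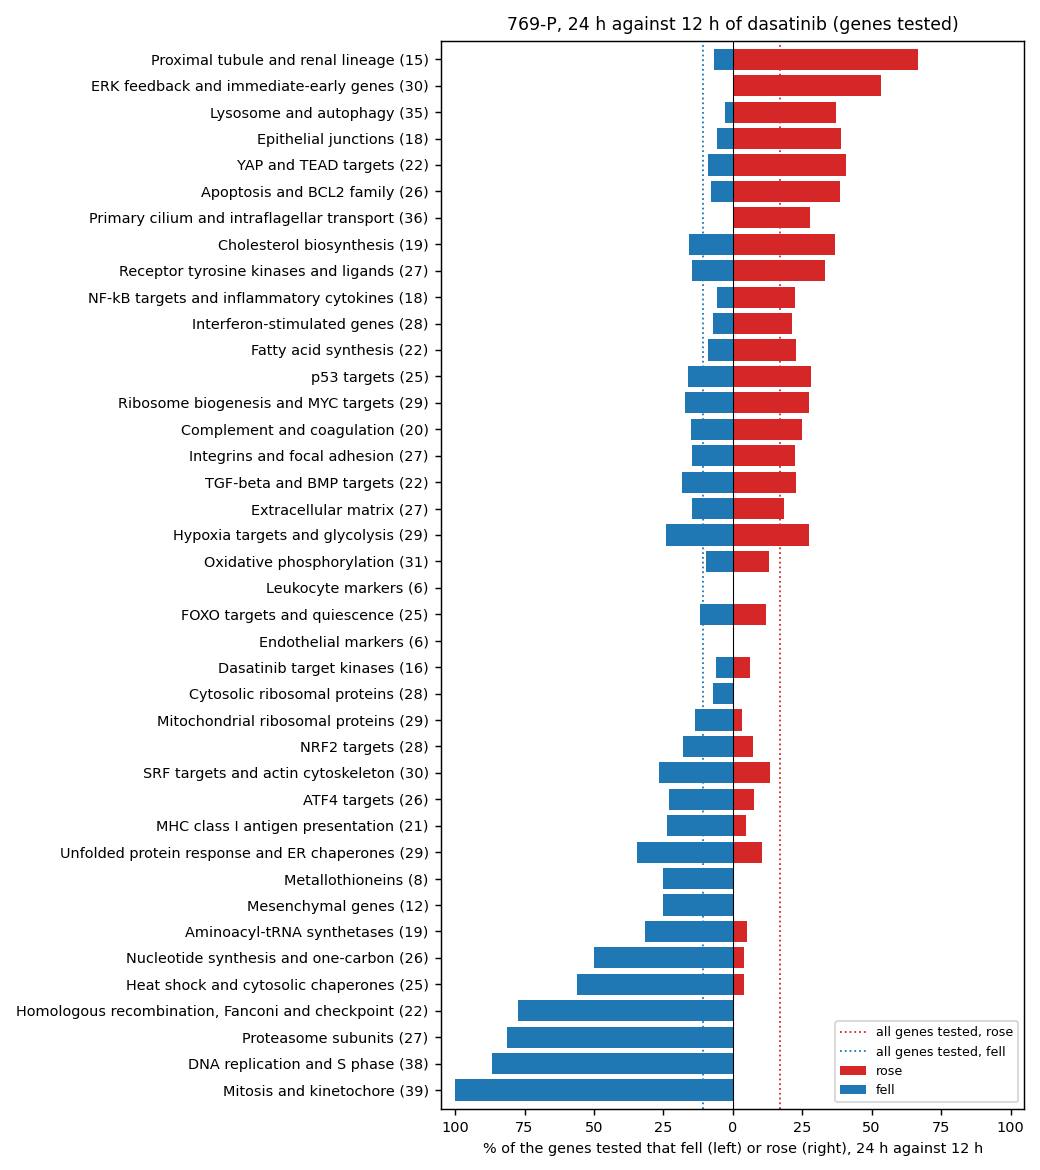
Share of the tested genes of each of 40 lists (y, number tested in brackets) that rose (right, red) or fell (left, blue) between 12 h and 24 h in 769-P, in percent. Dotted lines mark the shares over all genes tested, 17.0% risen and 10.8% fallen; all 39 mitosis genes fell, 22 of 27 proteasome subunits fell, and 16 of 30 ERK genes rose with none fallen.

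ERK pathway genes moved the other way. In the list for ERK feedback and immediate-early genes 16 of 30 rose, none fell, and the median change was 0.39. Against DMSO the list's median was -1.08 at 6 h, -0.49 at 12 h and -0.34 at 24 h. MYC, a growth-promoting transcription factor downstream of ERK that was placed on the ribosome biogenesis list, read 11.35, 11.29 and 11.02 with DMSO, 7.97, 7.32 and 7.83 at 6 h, 8.44, 8.17 and 8.66 at 12 h and 10.57, 10.13 and 10.23 at 24 h. Its change in the last step was 1.89 ± 0.16 (adjusted p = 3.46e-07), and at 24 h it stood at -0.91 against DMSO (adjusted p = 0.00017). None of the 4 groups of arrays overlapped for MYC.

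The feedback phosphatase DUSP6, which removes phosphate from ERK, read 8.45, 8.76 and 8.70 at 12 h and 10.28, 10.55 and 10.25 at 24 h, a change of 1.72 ± 0.15 (adjusted p = 3.93e-07). Against DMSO it stood at 0.63 at 12 h (adjusted p = 0.00248) and at 2.35 at 24 h (adjusted p = 2.4e-09). EGR1, an immediate-early transcription factor, read 6.40, 6.94 and 6.61 at 12 h and 8.15, 8.29 and 7.87 at 24 h, a change of 1.46 ± 0.18 (adjusted p = 2.37e-05), and against DMSO it stood at -0.03 at 12 h (adjusted p = 0.909) and at 1.42 at 24 h (adjusted p = 5.9e-06). For DUSP6 and EGR1 all arrays at 24 h lay above all DMSO arrays. The ETS factor ETV5 rose by 1.35 ± 0.22 and JUN by 1.33 ± 0.17, and these stayed below DMSO at 24 h, at -1.30 and -0.57 (adjusted p = 0.0001 and 0.0082).

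Cyclin D1 recovered little. CCND1 read 11.29, 11.15 and 11.12 with DMSO, 7.78, 7.84 and 8.01 at 12 h and 8.53, 8.10 and 8.47 at 24 h. Its change of 0.49 ± 0.14 passed the test (adjusted p = 0.0149) but not without replicate 1 at 24 h (0.41, adjusted p = 0.058), replicate 3 at 24 h or replicate 1 at 12 h (0.44 without either), and at 24 h it was at -2.82 against DMSO. Of the CDK inhibitors, CDKN1A (p21) rose by 0.36 ± 0.09 (adjusted p = 0.00606, and 0.0553 with the ACTB gap as a covariate) and CDKN1B (p27) changed by -0.71 ± 0.10 (adjusted p = 9.33e-05). CDKN1B read 10.82, 10.63 and 10.64 at 12 h and 10.03, 10.07 and 9.87 at 24 h, back near the 9.69, 9.90 and 10.05 of DMSO. CDKN1C (p57) read 9.34, 8.70 and 8.27 at 12 h and 8.35, 8.55 and 8.37 at 24 h, and its change of -0.34 ± 0.29 did not pass (adjusted p = 0.438).

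Ribosome biogenesis genes, among them known MYC targets, stood at a median of -0.78 at 6 h, -1.13 at 12 h and -0.91 at 24 h against DMSO. In the last step 8 of 29 rose and 5 fell, and the rises, MYC included, numbered 5 without replicate 3 at 12 h and the falls 3 without replicate 2 at 24 h or replicates 1 or 2 at 12 h. RRS1 (0.68 ± 0.12), the RNA helicase DDX21 (0.61 ± 0.07) and BYSL (0.59 ± 0.12), which act in assembling ribosomal subunits, rose. DDX21 read 12.88, 12.86 and 12.79 with DMSO, 11.23, 11.26 and 11.23 at 12 h and 11.98, 11.73 and 11.84 at 24 h. The proteins of the ribosome itself changed little. Of 28 cytosolic ribosomal proteins none rose and 2 fell (RPL35 at -0.15 and RPL10A at -0.13), and RPL10A did not pass without replicate 1 or 3 at 24 h or replicate 1 or 2 at 12 h (adjusted p = 0.12 without replicate 1 at 24 h). Neither passed with the ACTB gap as a covariate. Of 29 mitochondrial ribosomal proteins 1 rose, MRPL15, and 4 fell, and the falls numbered 7 without replicate 1 at 24 h and 2 without replicate 2 or 3 at 24 h or replicate 1 or 2 at 12 h. MRPL15 rose by 0.22 ± 0.07 on its brightest probe set, changed by -0.05 on the mean of its probe sets and did not pass without replicate 1 or 2 at 24 h or replicate 3 at 12 h (adjusted p = 0.092 without replicate 1 at 24 h).

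**Figure D4:**
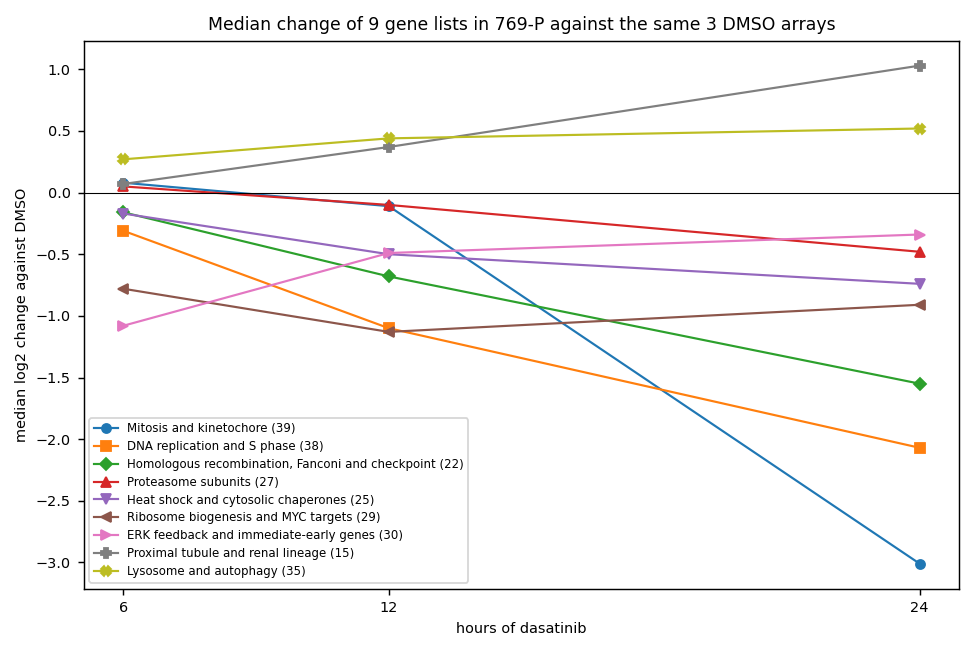
Median log2 change against DMSO (y) at 6, 12 and 24 h of dasatinib (x) for 9 gene lists in 769-P, with the number of genes tested in brackets; the 3 times share the same DMSO arrays. The mitosis list runs from 0.08 and -0.11 to -3.01, the replication list from -0.31 and -1.10 to -2.07, the ERK list from -1.08 to -0.34 and the renal list from 0.07 to 1.03.

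Genes of the kidney tubule rose. In the list for the proximal tubule and renal lineage 10 of 15 tested genes rose, 6 without replicate 3 at 24 h and 11 without replicate 1, and 1 fell, 2 without replicate 1 at 24 h. DPP4, a brush border peptidase, read 7.63, 7.71 and 7.86 at 12 h and 8.97, 9.30 and 9.40 at 24 h, a change of 1.49 ± 0.20 (adjusted p = 4.95e-05). The kidney cadherin CDH6 rose by 1.2 ± 0.13 from 7.71, 7.99 and 7.78 to 9.07, 8.92 and 9.10, and MME, the brush border enzyme neprilysin, rose by 1.08 ± 0.24. All 3 arrays at 24 h lay above all 3 at 12 h in DPP4, CDH6 and MME, a separation that 25.3% of all genes tested showed in that direction. The fall was PCK1, the enzyme that commits carbon to glucose synthesis, which read 4.08, 4.02 and 4.24 with DMSO, 7.75, 8.51 and 7.80 at 6 h, 6.74, 7.52 and 7.04 at 12 h and 5.27, 5.80 and 5.42 at 24 h, a change of -1.60 ± 0.21 (adjusted p = 3.99e-05). Its arrays were highest at 6 h, and it fell in the last step while the other members named here rose.

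The 15 largest rises held other genes. SLC27A2, a fatty acid transporter and acyl-CoA synthetase, read 5.99, 6.72 and 6.68 at 12 h and 8.61, 8.70 and 9.07 at 24 h, a change of 2.33 ± 0.29 (adjusted p = 2.28e-05). SLCO4C1, an organic anion transporter of tubule cells, rose by 2.19 ± 0.29, and TINAG, a protein of the tubular basement membrane, by 1.85 ± 0.26. The largest of these rises in the main fit belonged to KCTD12, an auxiliary subunit of GABA-B receptors, which read 8.26, 8.69 and 8.59 with DMSO, 6.89, 7.56 and 7.12 at 6 h, 5.83, 5.98 and 6.28 at 12 h and 8.15, 8.71 and 8.53 at 24 h. Over the alternative fits KCTD12 changed by 1.35 to 2.6 and SLC27A2 by 2.09 to 2.45. Their order thus depends on the fit. The change of KCTD12 in the main fit, 2.43 ± 0.18 (adjusted p = 5.32e-08), brought it to -0.05 against DMSO (adjusted p = 0.85), so the drop of the first hours was made up by 24 h. The Notch ligand-like DNER (2.0 ± 0.21) and the phospholipase PLA1A (1.80 ± 0.21) instead came from low DMSO signals of 4.30, 4.02 and 4.22 and of 4.31, 4.02 and 3.86, below the filter level of 5.36. The choline transporter-like SLC44A3 (1.78 ± 0.28), the potassium channel KCNK2 (1.67 ± 0.22), the secreted guidance protein NTN4 (1.59 ± 0.18) and the histone demethylase KDM7A (1.57 ± 0.19) complete the group with CFI, MYC, DUSP6, CLU and CRYAB.

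Cell junction genes shifted in part. Of 18 tested genes for epithelial junctions 7 rose and 1 fell, with 4 and 3 without replicate 1 at 24 h and 2 falls without replicate 3 at 12 h. The claudins CLDN2 (1.38 ± 0.14) and CLDN4 (0.92 ± 0.14) and plakoglobin JUP (0.98 ± 0.12) rose, and CLDN2 went from 9.87, 10.05 and 10.25 to 11.68, 11.49 and 11.13. Keratin 7 (KRT7) fell from 9.42, 9.47 and 9.63 to 8.39, 7.90 and 8.26, a change of -1.33 ± 0.11. Of 12 mesenchymal genes none rose and 3 fell, with 1 rise without replicate 1 and 1 fall without replicate 3 at 12 h. The falls were SNAI2 (-1.37 ± 0.25), TGFBI (-0.54 ± 0.17) and SNAI1 (-0.47 ± 0.14), of which TGFBI and SNAI1 did not pass without replicate 1 at 24 h (adjusted p = 0.12 and 0.064). The mean of SNAI1 at 24 h, 5.32, was under the filter level.

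Of 35 genes for the lysosome and autophagy 13 rose and 1 fell, with a median of 0.15, and 11 rose and 2 fell without replicate 1 at 24 h. The acid glucosidase GAA read 7.01, 7.34 and 7.33 at 12 h and 8.05, 8.23 and 8.36 at 24 h, a change of 0.99 ± 0.11 (adjusted p = 7.4e-06). The peptidase TPP1 rose by 0.83 ± 0.08, acid ceramidase ASAH1 by 0.64 ± 0.08 and the autophagosome protein MAP1LC3B by 0.60 ± 0.07. GAA, TPP1 and ASAH1 had risen before, with 12 h values against DMSO of 0.62, 1.01 and 0.81 (adjusted p = 0.00025, 5.4e-08 and 7.5e-07), while MAP1LC3B stood at 0.13 then (adjusted p = 0.12). The E-box CACGTG, to which TFEB is known to bind, was in 8 of 27 lysosome windows (29.6%), against 7.4% of all promoters and 9.9% of those of genes tested. These 8 genes changed by a median of 0.32 (from -0.07 to 0.99) and the 19 without the letters by 0.09 (from -0.42 to 0.83), so the ranges overlapped widely.

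CFI and CLU, genes of the complement system, were among the 15 largest rises. CFI, the protease that inactivates complement fragments, read 6.57, 7.55 and 8.08 at 12 h and 9.14, 9.63 and 9.85 at 24 h, a change of 2.14 ± 0.48 (adjusted p = 0.00345). Its arrays spread widely within a group. They did not overlap between the times, but the largest rises were picked for that, so it does not weigh against the spread. Of all genes tested 25.3% showed the same separation. The secreted chaperone and complement regulator CLU rose from 9.29, 9.58 and 9.46 to 11.23, 11.11 and 11.03, a change of 1.68 ± 0.09 (adjusted p = 7.55e-10), and factor B (CFB) rose by 1.07 ± 0.17. In the whole list for complement and coagulation 5 of 20 rose and 3 fell, among the latter CD55, the membrane inhibitor of complement, at -0.77 ± 0.13. Over all genes tested 17.0% rose and 10.8% fell. The median change of the complement list was 0.1, and 0.01 without replicate 1 at 24 h. Of 36 genes of the primary cilium 10 rose and none fell, with 6 rises without replicate 2 at 24 h or without replicate 1 at 12 h and 1 fall without replicate 1 or 2 at 24 h. BBS1, a part of the BBSome coat, rose by 0.91 ± 0.12 but changed by 0.16 on the mean of its probe sets, which did not pass, and the transition zone protein TCTN1 by 0.65 ± 0.10.

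Survival and stress genes moved in both directions. Of 26 genes for apoptosis and the BCL2 family 10 rose and 2 fell, 4 without replicate 1 at 24 h. The death ligand TNFSF10 (TRAIL) read 12.21, 12.63 and 12.55 at 12 h and 13.35, 13.46 and 13.30 at 24 h, a change of 0.90 ± 0.15 (adjusted p = 0.000312), and its receptor TNFRSF10B rose by 0.51 ± 0.07. The death receptor FAS fell from 9.38, 9.34 and 9.20 to 8.89, 8.54 and 8.62, a change of -0.62 ± 0.11. Of 25 p53 targets 7 rose and 4 fell, and the falls numbered 2 without replicate 3 at 24 h or replicate 1 at 12 h. DDB2, a sensor of DNA damage, changed by -0.93 ± 0.08, and PLK3, a stress-responsive kinase, rose by 0.74 ± 0.17, but was 0.44 and did not pass with the ACTB gap as a covariate (adjusted p = 0.173).

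Of 25 FOXO and quiescence genes 3 rose and 3 fell, and the rises numbered 7 without replicate 1 and 1 without replicate 2 at 24 h. Against DMSO the list stood at a median of 1.11 at 6 h, 1.36 at 12 h and 1.55 at 24 h. ARRDC4, a relative of the thioredoxin-interacting protein, rose by 1.10 ± 0.38 (adjusted p = 0.0435), with 12 h arrays at 8.89, 10.31 and 10.22 and 24 h arrays at 10.50, 11.30 and 10.92. It did not pass without replicate 2 (0.90) or 3 (1.09) at 24 h or replicate 1 at 12 h (0.64). Of 26 ATF4 targets 2 rose, 1 without replicate 2 or 3 at 24 h or replicate 1 or 3 at 12 h, and 6 fell, 3 without replicate 1 or 2 at 12 h, and the falls included the mTOR inhibitor DDIT4 (-0.87 ± 0.11), the cystine carrier SLC7A11 (-1.13 ± 0.10) and the leucine carrier SLC7A5 (-0.97 ± 0.23). DDIT4 had climbed from 7.92, 7.98 and 8.36 with DMSO to 10.93, 11 and 10.96 at 12 h and stood at 10.18, 10.14 and 9.97 at 24 h.

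Of 28 NRF2 targets 2 rose and 5 fell, with 1 rise without replicate 2 or 3 at 24 h or replicate 1 or 2 at 12 h. AKR1C2, an aldo-keto reductase, went from 12.69, 12.74 and 12.68 to 12.22, 12.21 and 12.14, a change of -0.52 ± 0.08, after a climb of 4.13 over DMSO at 12 h. HMOX1, heme oxygenase, read 11.24, 11.17 and 11.76 at 12 h and 11.14, 10.53 and 10.95 at 24 h, and its change of -0.51 ± 0.20 did not pass (adjusted p = 0.0661). It passed with the replicate block (-0.51, adjusted p = 0.00361), on the 6 arrays compared alone (adjusted p = 0.0489), with array weights (-0.71, adjusted p = 0.00968), on the mean of its probe sets (-0.69, adjusted p = 0.0108) and without replicate 1 at 24 h (-0.64, adjusted p = 0.0343). Of 8 metallothionein and zinc genes none rose and 2 fell, MT1X at -1.79 and MT2A at -1.13. MT1X, a metal-binding protein, read 9.94, 10.44 and 11 at 12 h and 8.99, 8.43 and 8.57 at 24 h, which is near its DMSO arrays of 8.95, 8.49 and 8.12.

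Adhesion and cytoskeleton lists were mixed. Of 22 YAP and TEAD targets 9 rose, 4 without replicate 1 at 24 h, and 2 fell, 1 without replicate 2 at 12 h. The Golgi kinase-related FJX1 (0.96 ± 0.11) and the junction protein AMOTL1 (0.92 ± 0.15) rose, and the receptor kinase AXL fell from 11.69, 11.58 and 11.58 to 10.64, 10.40 and 10.45, a change of -1.12 ± 0.07 (adjusted p = 5.3e-09). CCN1, a secreted matricellular protein induced by YAP, read 11.97, 12.04 and 11.96 with DMSO, 9.76, 9.01 and 9.06 at 12 h and 10.79, 10 and 9.83 at 24 h. Its rise of 0.93 ± 0.27 (adjusted p = 0.0157) did not pass without replicate 1 at 24 h (0.64, adjusted p = 0.073) or replicate 2 or 3 at 12 h (0.80 and 0.83). CCN2, with a mean of 4.96, was below the filter and has no test. Of 30 SRF and actin genes 4 rose and 8 fell, among the falls profilin PFN1 (-1.06 ± 0.07), which went from 11.68, 11.59 and 11.58 to 10.59, 10.52 and 10.57.

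Of 27 integrin and focal adhesion genes 6 rose and 4 fell, 1 without replicate 1 at 12 h. ITGB8, an integrin subunit that activates latent TGF-beta, rose by 0.89 ± 0.22 from 10.59, 10.59 and 10.97 to 11.68, 11.67 and 11.46, but with the ACTB gap as a covariate it was 0.58 and did not pass (adjusted p = 0.201). Of 27 receptor tyrosine kinases and ligands 9 rose, 5 without replicate 2 at 24 h, and 4 fell. HBEGF, a ligand of the EGF receptor, rose by 1.11 ± 0.21 from 6.13, 6.35 and 5.78 to 7.58, 7.01 and 7.0 and FGFR1 by 0.88 ± 0.10, while the receptor TYRO3 changed by -0.67 ± 0.13 (-0.41 and not passing with that covariate, adjusted p = 0.0751). Of 16 kinases that dasatinib is known to bind 1 rose (EPHA2, by 0.61 ± 0.14) and 1 fell (RIPK2, -0.23), and the fall of RIPK2 did not pass when any 1 of the 6 arrays was left out (adjusted p = 0.054 without replicate 1 at 24 h). EPHA2 changed by 0.34 on the mean of its probe sets and by 0.40 with the ACTB gap as a covariate, and passed under neither.

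In the extracellular matrix list 5 of 27 rose and 4 fell. THBS1, thrombospondin, rose by 1.31 ± 0.14 from 10.04, 9.55 and 10.01 to 11.47, 11.08 and 10.97, and the collagenase MMP1 fell from 7.96, 7.57 and 7.79 to 5.50, 4.53 and 4.57, a fitted change of -2.91 ± 0.20 (adjusted p = 1.84e-08) to a mean of 4.87 that lies under the filter level of 5.36 and is not resolved. Of 22 TGF-beta and BMP targets 5 rose and 4 fell, with the ligand BMP2 at 1.14 ± 0.25 (from a mean of 5.29, under the filter level) and the TGF-beta antagonist PMEPA1 at -0.82 ± 0.22, which did not pass without replicate 3 at 24 h or replicate 1 at 12 h. Of 28 interferon-stimulated genes 6 rose, 3 without replicate 3 at 24 h or replicate 1 at 12 h, and 2 fell, 1 when any single array at 12 h or replicate 2 or 3 at 24 h was left out. The antiviral proteins parted: IFITM1 rose by 1.22 ± 0.21 from 7.06, 7.67 and 7.57 to 8.49, 8.60 and 8.85, and IFIT1 changed by -0.98 ± 0.11 from 8.88, 8.99 and 8.81 to 7.80, 8.05 and 7.88. Of 21 genes for MHC class I presentation 1 rose, 0 when any array other than replicate 3 at 12 h was left out, and 5 fell, 3 without replicate 3 at 24 h, led by the proteasome activator PSME2 (-0.80 ± 0.09). Of 18 NF-kB targets 4 rose, 2 without replicate 1 or 3 at 24 h or replicate 2 at 12 h, and 1 fell (BCL3, -0.40 ± 0.08, but -0.11 and not passing on the mean of its probe sets).

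Metabolic lists showed smaller shifts. Of 19 genes for cholesterol biosynthesis 7 rose and 3 fell, with SC5D, a desaturase of the late pathway, at 0.78 ± 0.11 and the feedback regulator INSIG1 at -0.81 ± 0.20. DHCR7, which makes the last step to cholesterol, read 6.5, 6.56 and 6.37 at 12 h and 7.77, 6.89 and 7.07 at 24 h, where replicate 1 stood apart, and rose by 0.77 ± 0.18 with it and 0.51 without it. With the ACTB gap as a covariate it was 0.42 and did not pass (adjusted p = 0.208). Of 22 fatty acid synthesis genes 5 rose and 2 fell, with 3 and 4 without replicate 1 at 24 h and 3 rises without replicate 2 at 12 h. The desaturase SCD5 rose by 0.95 ± 0.16, while SCD (1.03 ± 0.29) and the acyl-CoA ligase ACSL1 (0.83 ± 0.26) did not pass without replicate 1 at 24 h (adjusted p = 0.056 and 0.082). Of 29 hypoxia and glycolysis genes 8 rose, 5 without replicate 1 at 24 h, and 7 fell, 4 without replicate 2 or 3 at 24 h or replicate 1 at 12 h. The stress protein NDRG1 (0.66 ± 0.09, but 0.33 and not passing on the mean of its probe sets, adjusted p = 0.113) and VEGFA (0.61 ± 0.07) rose, and the glucose carrier SLC2A1 (-0.74 ± 0.17) and pyruvate kinase PKM (-0.66 ± 0.08) fell. Of 31 oxidative phosphorylation genes 4 rose, 2 without replicate 3 at 12 h, and 3 fell, 1 without replicate 3 at 24 h or replicate 2 at 12 h. Of 19 aminoacyl-tRNA synthetases 6 fell and 1 rose, with IARS1 at -0.50 ± 0.07, and the rises numbered 2 without replicate 2 at 12 h and 0 without any other array.

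Cell type markers were read as a check of the label. Of 9 markers of renal epithelium on the array 7 lay above the filter, with PAX8 at 10.04 at 12 h and 10.29 at 24 h, while LRP2 (5.25) and AQP1 (4.96) lay below it. Of 15 leukocyte markers 6 lay above the filter, the brightest being CD68 (mean 8.78) and ITGAX (7.64). The others lay below it, among them PTPRC with a mean of 3.48. The leukocyte markers' summed log2 signal ran from 76.4 to 77.5 at 12 h and from 76.2 to 77.9 at 24 h. Of 15 endothelial markers 6 lay above the filter, and their sum ran from 77.8 to 80.5 and from 78.4 to 80.6. None of these 12 tested markers rose or fell, and 1 endothelial marker fell without replicate 3 at 24 h.

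Genes that changed in the last step were set against the calls at 6 h, which come from other arrays (6 h against DMSO, where 2021 genes, 16.4%, were higher and 1796, 14.5%, lower). Of the 1796 genes that were lower at 6 h, 528 (29.4%) rose in the last step and 187 (10.4%) fell. Of the 2021 that were higher at 6 h, 476 (23.6%) rose and 274 (13.6%) fell. Of the 1330 falls of the last step, 869 (65.3%) were not called at 6 h. Over all 12350 genes tested 8533 were not called at 6 h and 30.9% were, so the share among the falls was not above the background. MYC, JUN, THBS1 and HBEGF belong to the first kind, with 6 h values of -3.51, -2.59, -3.28 and -3.12, and DDIT4 and IFIT1 to those that first rose, by 2.78 and 1.04.

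The change of a gene in the last 12 hours minus its change in the 6 hours before was also tested. The 2 steps share the 12 h arrays. The difference keeps its sign, so a higher or lower call does not say in which step a gene moved further. In the step from 6 h to 12 h 8.91% of genes rose and 10.2% fell. The difference of the 2 steps was called higher in 512 genes (4.15%) and lower in 471 (3.81%). The higher genes numbered 819 with the replicate number as a block and 252 without replicate 1 at 12 h, and the lower ones 296 without replicate 2 at 12 h. All 39 mitosis genes were lower, with a median of -2.80, and so were 9 of the 22 repair genes, while of the 38 replication genes 8 were lower and 4 higher. The largest differences on the higher side were those of KCTD12 (3.60 ± 0.31), SLC27A2 (3.08 ± 0.50), NTN4 (2.88 ± 0.31), UBASH3B (2.77 ± 0.35) and SLCO4C1 (2.41 ± 0.50), all of which were lower at 12 h than with DMSO. SLCO4C1 did not pass without replicate 1 at 12 h (2.05, adjusted p = 0.0585), and 2 of its 3 arrays at 12 h lay under the filter level. UBASH3B, a phosphatase that restrains tyrosine kinase signalling, read 10.51, 10.42 and 10.26 with DMSO, 8.02, 8.13 and 7.49 at 6 h, 6.17, 6.23 and 6.47 at 12 h and 8.03, 7.16 and 7.20 at 24 h, so it turned between 12 h and 24 h without reaching DMSO. On the lower side stood NEURL1B (-3.68 ± 0.28), TOP2A (-3.64 ± 0.36), PIF1 (-3.37 ± 0.17), PIMREG (-3.35 ± 0.15) and KIF20A (-3.31 ± 0.17). NEURL1B, a ubiquitin ligase of Notch ligands, climbed from 5.35, 5.89 and 5.79 with DMSO to 7.35, 7.96 and 7.73 at 12 h and was at 4.68, 4.52 and 4.52 at 24 h. Those arrays lie under the filter level of 5.36 and its DMSO arrays lie close to it, so neither the size of its fall nor an order against DMSO is resolved.

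Caki-1 cells were measured at the same times and dose, and there 1301 of 12862 genes (10.1%) rose and 1741 (13.5%) fell from 12 h to 24 h. The difference between the lines in this step was called higher in 769-P for 714 genes (5.55%) and lower for 462 (3.59%). The higher genes numbered 1101 with the replicate block, 410 without replicate 2 and 473 without replicate 3 of Caki-1 at 24 h. The mitosis list had a median of -2.13 in Caki-1 and -2.95 in 769-P, and the difference was called lower in 769-P for 28 of 39 genes and higher for none. For CDK1 the change was -2.01 in Caki-1, with a difference of -1.33 ± 0.17 (adjusted p = 2.5e-05). The replication list differed in 2 of 38 genes, both lower in 769-P, and its medians were -0.88 and -0.81. MYC changed by 0.27 in Caki-1 and by 1.89 in 769-P, a difference of 1.62 ± 0.21 (adjusted p = 3.9e-05), and 8 of 31 ERK genes were higher in 769-P and 1 lower.

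The genes that parted the lines most on the higher side of 769-P were DNER, KCTD12, SLC27A2, TINAG and PTX3. DNER rose from 5.39, 6.18 and 5.46 to 7.88, 7.84 and 7.32 in 769-P and went from 6.97, 6.18 and 6.29 to 6.09, 5.81 and 5.58 in Caki-1, a difference of 2.65 ± 0.30 (adjusted p = 8.04e-06). The 769-P arrays did not overlap between the times, but the largest rises were picked for that. In Caki-1 the lowest array at 12 h, 6.18, lay just above the highest at 24 h, 6.09. No test of the Caki-1 change of DNER is given here, so a fall in that line is not established. On the lower side, DOCK2, an activator of RAC known mostly from blood cells, read 8.48, 8.75 and 9.21 with DMSO, 6.88, 7.51 and 7.83 at 12 h and 4.39, 4.25 and 4.49 at 24 h in 769-P, a change of -3.03 ± 0.24 with a difference from Caki-1 of -2.27 (adjusted p = 1.7e-05). At 24 h it lay under the filter level of 5.36, and the level below is not resolved. APOLD1 changed by -2.41 ± 0.14 in 769-P and by -0.48 in Caki-1, and BCAT1, the cytosolic branched-chain aminotransferase, by -2.13 ± 0.14 (to a mean of 4.4, also under that level) and -0.26, but its difference between the lines was -0.25 on the mean of its probe sets and did not pass.

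**Figure D5:**
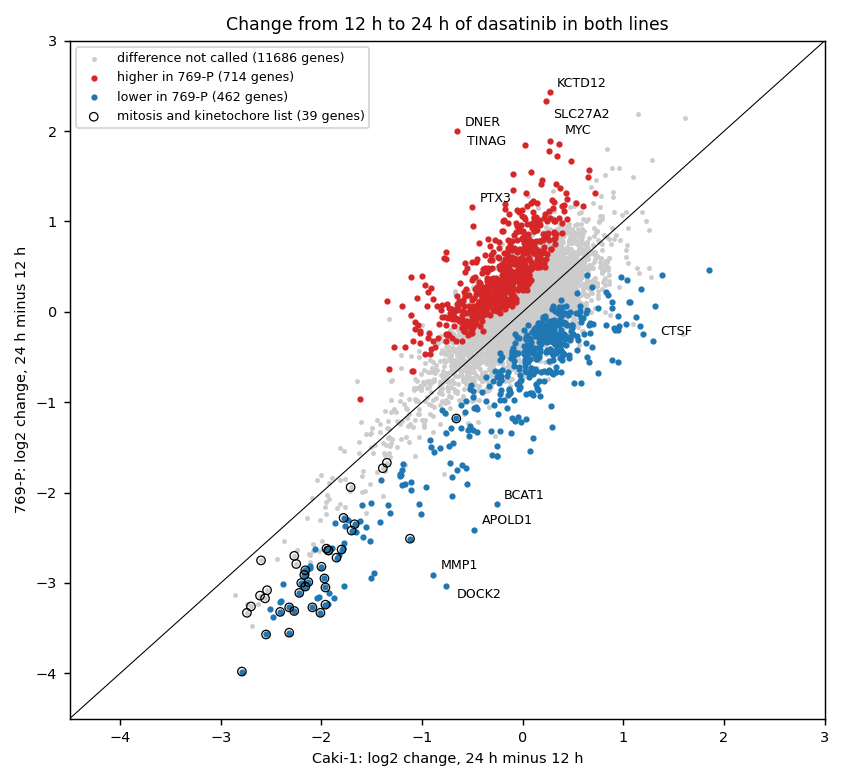
Log2 change from 12 h to 24 h of dasatinib in Caki-1 (x) and 769-P (y), 1 point a gene, with the line of equality; red and blue points are the 714 and 462 genes whose difference between the lines was called higher or lower in 769-P, and open circles the 39 mitosis genes. The mitosis genes lie at the lower left, mostly below the line, and DNER, KCTD12 and SLC27A2 lie at the top.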

How the data were processed

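The values were the submitters' series table of an Affymetrix PrimeView array, read as log2 intensities on which the authors' own processing had been done before it was deposited. The submitters' processing notes name MAS5, and its settings are not given in the sources used here. Of 49395 probe sets 102 controls were left out, 44988 named exactly 1 gene, 1832 several and 2473 none, and each of 18132 genes was read from the single-gene probe set with the highest mean over all 24 arrays. Array signals do not compare levels between genes.

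Genes whose mean over the 12 arrays of 769-P was above the 40th percentile of all probe sets (5.36) were tested. limma 3.58.1 in R 4.3.3 was fitted to group means of those 12 arrays (8 residual degrees of freedom) with an intensity trend, and to all 24 arrays for the difference between lines. P-values were adjusted by the Benjamini-Hochberg method over all genes tested, with 0.05 as the threshold. On simulated data of 12350 genes for the 24 h against 12 h comparison the fit recovered 98% of 100 genes changed by 1 and 100% of 100 changed by 2 on the log2 scale, with 6 false calls. The simulated noise was independent between genes and arrays. It held no array-wide shift such as a difference in RNA quality, so false calls from such a shift were not tested.

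The labels do not say whether replicate numbers pair the samples. Deviations from the group means of the 24 h and 12 h arrays of the same number correlated at 0.18, 0.17 and 0.16. Those of different numbers correlated between -0.14 and 0.00. Deviations within a group cancel, so these values are not independent. The main fit had no replicate block. The fit with that block was an alternative, with 2503 rises and 1543 falls in the last step. The others were quantile normalization, median centring, another filter or none, averaging a gene's probe sets, only the 6 arrays compared, no trend, robust variance, array weights, the ACTB gap as a covariate and each array left out.

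Genes were named by rule: the 15 largest rises and falls without overlap of arrays and with a mean above the median probe set, up to 4 changed genes of each list with the largest change, the 5 largest in each direction of both further comparisons, and MYC, CCND1, CDKN1A, CDKN1B, CDKN1C, CCN1, CCN2, EGR1, HMOX1 and MKI67. The comparison and the 40 lists were chosen with earlier results of these data known. List members without a probe set of their own were not analysed here. Promoter sequences are those of RefSeq, and 7 motifs were searched in them. The matches of the antioxidant response element core, the ISRE core and the TATA box are not described.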

Additional observations from a re-analysis of the deposited data

Results flagged for a closer look

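In 10 genes the change from 12 h to 24 h differed between 769-P and Caki-1 by the limma test of the difference over all 24 arrays. They are the 5 largest in each direction, given as 769-P minus Caki-1 on the log2 scale, with 3 arrays a group. Higher in 769-P were DNER at 2.65, KCTD12 at 2.16, SLC27A2 at 2.10 and TINAG at 1.83, with changes of 2.0, 2.43, 2.33 and 1.85 in 769-P itself. PTX3, a secreted pentraxin, differed by 1.66, and its Caki-1 arrays went from 8.18, 8.41 and 8.27 to 8.09, 7.63 and 7.63. It did not pass with the ACTB gap as a covariate (1.09) or without replicate 2 of 769-P at 12 h (1.43).

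Lower in 769-P were DOCK2 at -2.27, MMP1 at -2.02, APOLD1 at -1.94, BCAT1 at -1.88 and CTSF at -1.61. MMP1 had the widest error of these, with Caki-1 arrays at 7.15, 5.39 and 4.97 at 12 h and 5.70, 4.92 and 4.22 at 24 h and a SE of 0.56 (adjusted p = 0.0245). It did not pass without any 1 of 7 of the 12 arrays, with values from -2.03 to -1.59. CTSF, a lysosomal protease, was a change of Caki-1: there it went from 6.71, 7.60 and 7.44 to 8.58, 8.51 and 8.52, while its 769-P arrays, 4.37, 4.87 and 4.63 at 12 h and 4.45, 4.17 and 4.28 at 24 h, lay under the filter level of 5.36.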

How the results depend on the processing

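The 2098 rises of the last step numbered 1034 with the ACTB gap as a covariate and from 1485 to 1853 when single arrays were left out, and the 1330 falls from 1070 to 1331. The share of rises among the calls was 61.2%, 53.2% after averaging each gene's probe sets and 50.7% with the covariate. For the last step minus the step before, the 512 higher genes numbered 819 with the replicate block, 335 with the mean of probe sets and 282 with the covariate, and from 252 to 497 with single arrays left out, and the 471 lower ones from 296 to 533. For the difference between lines, the 714 higher genes numbered 1101 with the replicate block, 1134 with array weights and 356 with the covariate, and from 410 to 922 with single arrays left out, and the 462 lower ones 694 with array weights and from 334 to 481. The block moved no other of these counts by over 1.5 times. The cause of these shifts was not tested. Of 167 named genes of the last step, 47 lost their call under at least 1 alternative, 38 of them with the covariate, 18 with the mean of probe sets and 13 without replicate 1 at 24 h. One reversed, MRPL15, from 0.22 to -0.05 with the mean of probe sets. Of 80 list counts 57 moved by over 1.5 times under some alternative, 42 of them with the covariate, 20 with the mean of probe sets and 19 without replicate 1 at 24 h. The 39 falls of the mitosis list moved so under none. With 3 arrays a group and a median SE of 0.105, small changes are not resolved, and signals under 5.36 carry no order.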

Other observations

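Gene groups that no list covered were counted after values were seen, with the same test and the backgrounds of 17.0% risen and 10.8% fallen. Of 28 tested histone genes 6 rose and 7 fell. The falls were led by H2AX at -2.32, H2AC20 at -1.23 and H2AZ1 at -1.03, while H2BC5 rose by 1.51 ± 0.25 and H1-2 by 1.06. Of 34 kinesins 12 fell and 6 rose: the falls included the mitotic KIF2C and KIF20A, and the rises KIFC2 (0.74), KIF9 (0.59) and KIF3A (0.46), the last a motor of intraflagellar transport. KIF3A did not pass without replicate 2 or 3 at 24 h or replicate 1 or 2 at 12 h, on the mean of its probe sets (0.21, adjusted p = 0.153) or with the ACTB gap as a covariate (adjusted p = 0.148). Of 20 genes with a CENP symbol 17 fell, led by CENPA, the histone of the centromere, at -3.17.

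Clock output genes shifted in both directions. Of 14 clock genes 2 fell, TEF at -1.70 and PER3 at -1.60 (SE 0.10 and 0.09), and 4 rose, HLF (0.92), NFIL3 (0.55), BMAL1 (0.44) and NPAS2 (0.38), of which NPAS2 did not pass without replicate 1 at 24 h (0.27, adjusted p = 0.175). The clock repressor NFIL3 and the activators of the PAR family TEF and HLF are known to share binding sites. No vehicle culture was matched in time, so the hour of harvest and the hours of drug cannot be told apart. Of 259 solute carriers 57 rose and 16 fell, with a median change of 0.05 beside 0.04 over all genes tested.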
